A study of Homo sapiens with 6 samples.

Results

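The genes examined here were those of glycolysis and of the response to low oxygen, in colorectal cancer cells that expressed DKK1 or did not. Members were named in a fixed list of 36 genes, and a gene was measured where the platform annotation paired at least 1 probe set with its symbol alone. This held for 32 of the 36 genes, out of 18404 genes on the arrays, and the probe set with the highest mean was kept for each. PGAM1 is covered only by probe sets that carry several gene symbols, and SLC16A1, SLC16A3 and CA9 were not analysed here. The gene listed as PKM2 is given under its current symbol, PKM. The measured members comprised 15 glycolytic enzymes and 17 other hypoxia genes, namely 2 glucose transporters, 3 regulators of glycolytic flux, 4 genes of the oxygen-sensing machinery and 8 further targets of the hypoxia-inducible factors (HIF).

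Whole-transcript arrays had been hybridised with RNA from DLD-1/DKK1 cells, which carry a lentiviral, doxycycline-dependent DKK1 gene, and from DLD-1/Mock cells, which carry the corresponding vector with no ectopic gene. DLD-1 cells come from a human colorectal adenocarcinoma and carry mutated APC. All dishes of both groups received doxycycline (10 mg/ml in the labels, micrograms per ml in the methods of the study) for a day, and doxycycline is itself known to inhibit mitochondrial protein synthesis. There were 3 arrays per group, and no treatment with low oxygen is described in the sources used here. Nothing in those sources ties the dishes to separate transductions, so the tests measure the spread between dishes.

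Glycolysis splits glucose into pyruvate in the cytosol, and tumour cells commonly convert much of that pyruvate to lactate even with oxygen present. Under low oxygen the alpha subunits of HIF escape hydroxylation by the EGLN prolyl hydroxylases and degradation through VHL, and they then raise the transcription of most glycolytic genes together with genes of angiogenesis, acid handling, mitophagy and collagen maturation. HIF activity is therefore set largely at the level of protein, whereas the arrays report transcripts. Shared HIF control links the glycolytic enzymes to the remaining hypoxia genes, and the comparison between both classes was the question asked of these data.

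DKK1, the targeted gene, had log2 values of 12.30, 12.38 and 12.36 in the DLD-1/DKK1 arrays, against 5.15, 5.74 and 5.01 in the DLD-1/Mock arrays, which fits the labels. The median log2 value of an array was 6.76 to 6.86. One array, Mock 2, was unlike the rest, as its correlations with them were 0.9953 to 0.9969, while the other pairs had 0.9973 to 0.9982. Mean log2 values ran from 7.28 (CDX1) to 12.88 (KRT8) for 8 colorectal epithelial markers, from 4.19 to 7.45 for fibroblast markers, from 4.98 to 6.17 for endothelial markers and from 4.34 to 7.35 for leukocyte markers, with CD68 the only marker of these non-epithelial lists at an unadjusted p under 0.05 (log2 fold change -0.26).

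No member passed the test of DLD-1/DKK1 against DLD-1/Mock, and in such bulk RNA fewer expressing cells and less RNA per cell cannot be told apart. After adjustment over all 32321 probe sets with limma, 0 of the 32 members had an adjusted p under 0.05 (smallest 0.228, largest 0.998), against 28 probe sets (0.0866%) on the whole array. At an unadjusted p under 0.05 there were 8 members (25.0%), 5 higher and 3 lower in DLD-1/DKK1, where 9.23% of all probe sets reached it, 4.02% higher and 5.21% lower. Over all genes, with 1 probe set each, the share was 10.1%. In a fit of only the probe sets brighter than the median it was 20.7% of 29 members, beside 12.6% of those probe sets. The 8 comprised the glucose transporters SLC2A1 and SLC2A3, the enzymes PFKM and ALDOC, the prolyl hydroxylase EGLN3 and the HIF targets P4HA1, NDRG1 and CA12. After centring each array on its median, under which the median of all genes was 0.045 and not -0.0072, 8 members were higher and 1 was lower at this level. That was 28.1% of members, beside 11.5% of all probe sets under the same centring. Centring added 0.052 to the log2 fold change of every gene, so that ALDOC had -0.076, EPAS1 -0.030, VEGFA -0.045, ADM -0.091 and BNIP3 -0.015 under it. The count of 8 fell to 5 (15.6%) without Mock 1, DKK1 1 or DKK1 3, beside 9.11%, 5.92% and 9.13% of all probe sets. It was 6 (18.8%) without Mock 2 or DKK1 2, beside 7.81% and 6.17%. Without Mock 3 it was 3, where 9.38% of members stood beside 9.95% of all probe sets. No member passed after adjustment in any of these refits.

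**Figure D1:**
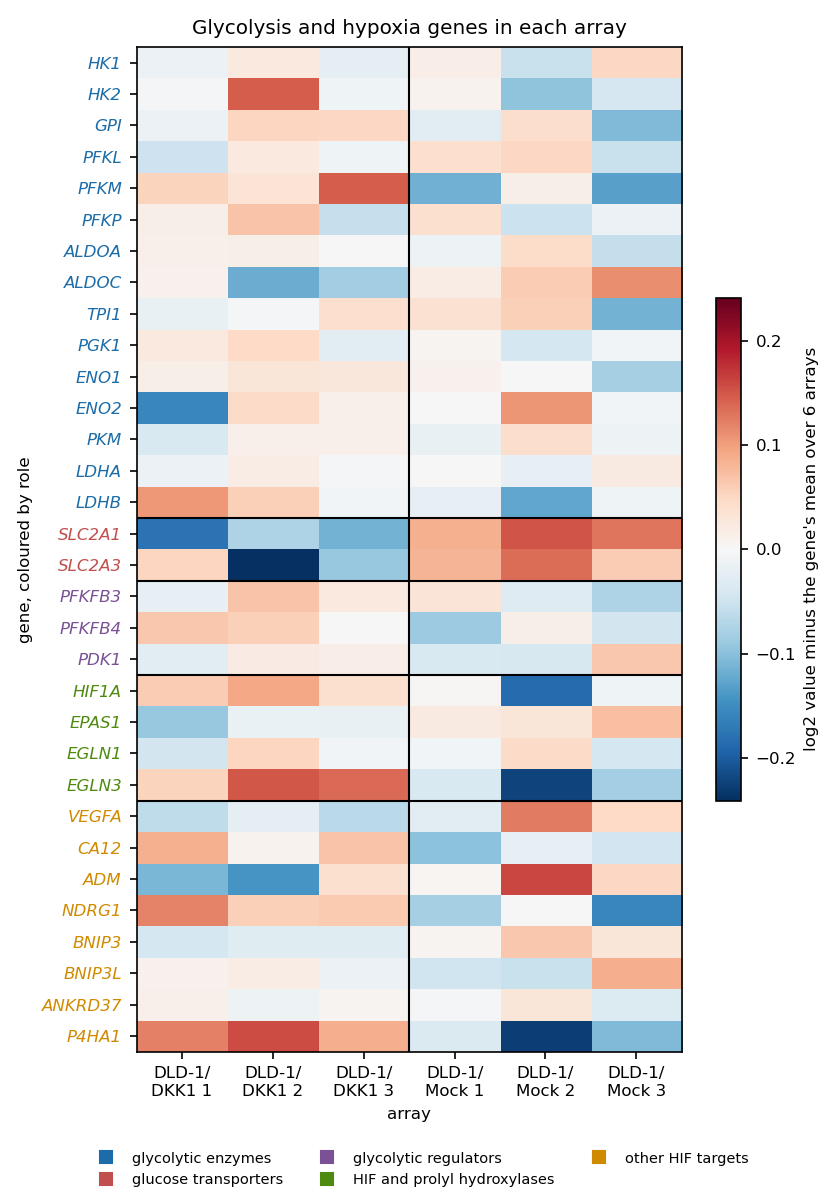
Log2 value of each of the 32 genes in each array minus the mean of that gene over the 6 arrays (colour), with genes in rows by role and the 3 DLD-1/DKK1 arrays left of the 3 DLD-1/Mock arrays. SLC2A1 is lower and P4HA1 and EGLN3 are higher in all 3 DLD-1/DKK1 arrays, while most enzyme rows are pale.

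Glucose enters the pathway through facilitative transporters, of which SLC2A1 (GLUT1) is the broadly expressed form and a classical HIF target. SLC2A1 had log2 values of 11.60, 11.70 and 11.66 in DLD-1/DKK1, against 11.86, 11.93 and 11.90 in DLD-1/Mock. All 3 DLD-1/DKK1 arrays thus lay below all 3 DLD-1/Mock arrays. The log2 fold change was -0.24 (SE 0.05; 95% interval -0.35 to -0.14; limma adjusted p = 0.228), or 0.845-fold, the smallest p of the members. By exact permutation of the arrays (two-sided) p was 0.1, and a design with 3 arrays on each side can give no smaller one. The fold change of SLC2A1 ran from -0.27 to -0.22 with 1 array left out. SLC2A3 (GLUT3), a high-affinity transporter, had values of 4.81, 4.51 and 4.66 in DLD-1/DKK1, against 4.84, 4.89 and 4.81 in DLD-1/Mock. Its log2 fold change was -0.19 (SE 0.08; limma adjusted p = 0.536), but it was -0.11 without DKK1 2 and -0.26 without DKK1 1. Its probe set was dim (percentile 18.5 of the array), so that a signal over background was not shown.

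P4HA1, a catalytic subunit of the collagen prolyl hydroxylase, had the highest log2 fold change of the members. Its log2 values were 10.00, 10.04 and 9.97 in DLD-1/DKK1, against 9.84, 9.65 and 9.77 in DLD-1/Mock. The groups did not overlap, and Mock 2 was the lowest array. The log2 fold change was 0.24 (SE 0.06; 95% interval 0.10 to 0.38; limma adjusted p = 0.385), or 1.19-fold. It was 0.19 without Mock 2 and 0.29 without Mock 1. EGLN3 (PHD3), an oxygen-dependent HIF prolyl hydroxylase that is itself induced by HIF, had values of 8.37, 8.47 and 8.46 in DLD-1/DKK1, against 8.28, 8.10 and 8.24 in DLD-1/Mock. Here too the groups were apart with Mock 2 at the bottom. EGLN3 thus differed by 0.23 in log2 (SE 0.06; limma adjusted p = 0.422), by 0.17 without Mock 2 and by 0.27 without Mock 1.

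**Figure D2:**
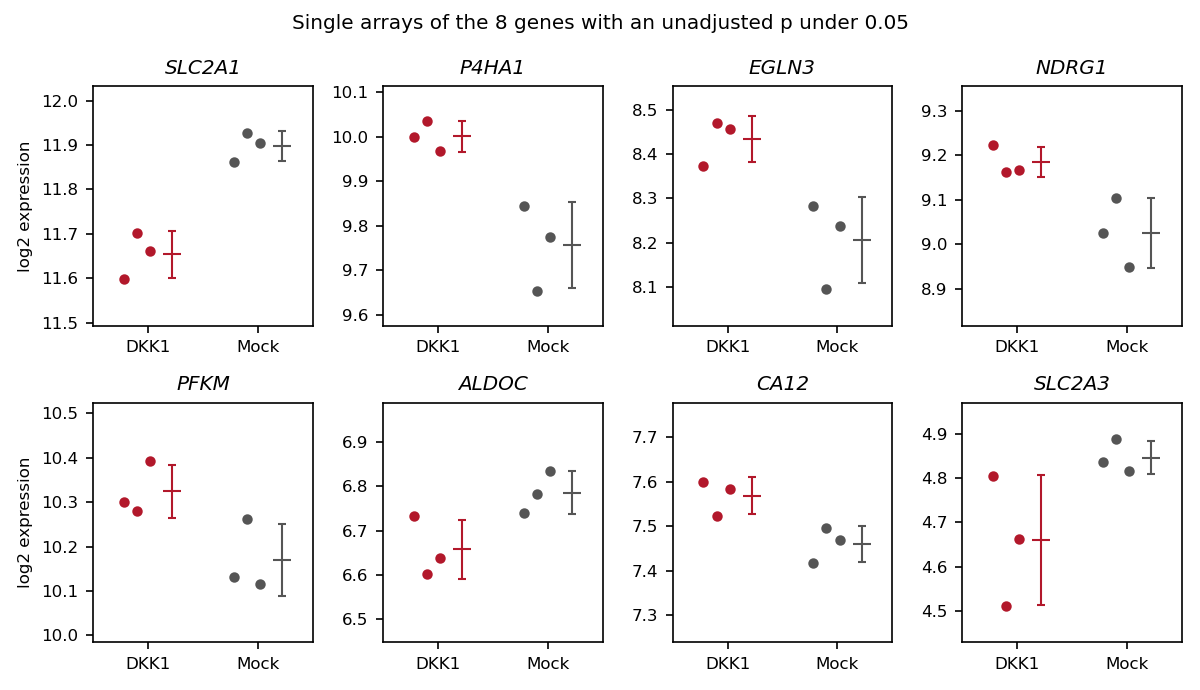
Log2 expression (vertical axis, same span in each panel) of the 8 genes with an unadjusted p under 0.05 in DLD-1/DKK1 (left) and DLD-1/Mock (right). Each point is an array, and the bar and its whiskers give mean ± SD (n = 3). SLC2A1 shows the widest gap relative to its spread, with DLD-1/DKK1 arrays at 11.60 to 11.70 and DLD-1/Mock arrays at 11.86 to 11.93.

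The promoters of the 3 members with the smallest p are shown because these members differed in direction, and that of LDHA because it held the most matches among the enzymes. HIF binds a short core, ACGTG or GCGTG, within hypoxia response elements, and both were searched on both strands of the 300 bases around each start site (250 before it and 50 after) in a RefSeq table of GRCh38.p14. Each sequence below gives the 250 bases before the start site, 5′ to 3′ on the strand of the gene, with matches to either core in capitals, written CACGT or CACGC where the match is on the opposite strand. The gene strand is minus for SLC2A1 (chr1:42958869-42959118), P4HA1 (chr10:73096867-73097116) and EGLN3 (chr14:33951075-33951324) and plus for LDHA (chr11:18394313-18394562).
SLC2A1: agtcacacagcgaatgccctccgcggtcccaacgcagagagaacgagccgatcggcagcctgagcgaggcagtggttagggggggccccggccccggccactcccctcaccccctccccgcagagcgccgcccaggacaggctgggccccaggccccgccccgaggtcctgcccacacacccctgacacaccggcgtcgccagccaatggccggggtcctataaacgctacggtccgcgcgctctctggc
P4HA1: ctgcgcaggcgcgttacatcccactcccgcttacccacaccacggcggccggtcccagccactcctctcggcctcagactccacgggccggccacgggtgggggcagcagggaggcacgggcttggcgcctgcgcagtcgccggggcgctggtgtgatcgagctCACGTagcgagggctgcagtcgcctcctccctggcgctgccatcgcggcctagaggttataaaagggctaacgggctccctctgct
EGLN3: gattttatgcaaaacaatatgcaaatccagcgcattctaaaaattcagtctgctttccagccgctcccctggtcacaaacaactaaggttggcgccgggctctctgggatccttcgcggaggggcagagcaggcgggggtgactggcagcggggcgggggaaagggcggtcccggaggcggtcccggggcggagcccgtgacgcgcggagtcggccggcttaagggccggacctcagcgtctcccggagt
LDHA: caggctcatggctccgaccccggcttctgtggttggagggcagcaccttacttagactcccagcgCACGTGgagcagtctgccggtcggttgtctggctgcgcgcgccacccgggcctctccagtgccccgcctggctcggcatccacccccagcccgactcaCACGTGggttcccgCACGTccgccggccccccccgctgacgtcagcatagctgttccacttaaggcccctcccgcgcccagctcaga

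P4HA1 held 1 ACGTG in these bases, and EGLN3 held neither core in the 300 bases searched. For each gene only the first promoter listed was used, and sequence outside that window was not searched. SLC2A1 held 1 GCGTG, which lies after the start site (positions 26 to 30) and so outside the bases shown. LDHA held 5 matches to ACGTG, of which the runs CACGTG count on both strands and are also the E-box letters that MYC and USF factors bind. It also held 1 GCGTG after the start site (positions 39 to 43), outside the bases shown. Of the 32 members, 28 had an entry in the promoter table (SLC2A3, VEGFA, NDRG1 and BNIP3L did not), and 22 of them (78.6%) held either core in the 300 bases. The share was 48.4% over all 35116 promoters of the table and 56.7% over the 14230 promoters of genes on the arrays. By core, ACGTG was held by 39.3% of members, 24.0% of genes on the arrays and 21.4% of all promoters, and GCGTG by 57.1%, 44.7% and 36.5%. GCGTG is also the core that the aryl hydrocarbon receptor binds. Either core was held by 11 of 15 enzymes and by 11 of 13 other hypoxia genes. It was held by 4 of the 6 promoters of members with an unadjusted p under 0.05 and by 18 of the 22 others, and a match describes the letters only.

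The glycolytic enzymes as a class lay close to 0. Their median log2 fold change was 0.018, with 9 of 15 above 0 and 6 below, against a median of -0.0072 and 46.4% above 0 over all 18404 genes. The median size of the change, taken without sign, was 0.030 for the enzymes and 0.055 for all genes, and 3 of the 15 exceeded 0.1 in size, as did 24.3% of all genes. At an unadjusted p under 0.05 there were 2 enzymes (13.3%), 1 in each direction, beside 9.23% of all probe sets.

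Of the enzymes, PFKM, the muscle-type subunit of phosphofructokinase, had values of 10.30, 10.28 and 10.39 in DLD-1/DKK1, against 10.13, 10.26 and 10.12 in DLD-1/Mock. The closest arrays, DKK1 2 and Mock 2, were nearly level. The log2 fold change of PFKM was 0.15 (SE 0.06; limma adjusted p = 0.519), while the subunits PFKL and PFKP had -0.024 and 0.019. For PFKM it was 0.20 without Mock 2 and 0.12 without DKK1 3. ALDOC, an aldolase best known from brain, had values of 6.73, 6.60 and 6.64 in DLD-1/DKK1, against 6.74, 6.78 and 6.83 in DLD-1/Mock. The log2 difference was -0.13 (SE 0.05; limma adjusted p = 0.533), with DKK1 1 and Mock 1 nearly touching, and it was -0.080 with quantile normalisation. ALDOA, the aldolase of most tissues, had a fold change of 0.018 on the same scale.

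ENO1, the broadly expressed enolase and the enzyme with the highest array value, had values of 13.23, 13.25 and 13.25 in DLD-1/DKK1, against 13.23, 13.22 and 13.14 in DLD-1/Mock. The groups did not overlap, yet they were separated by less than the spread among the DLD-1/Mock arrays, and the log2 fold change was 0.047 (95% interval -0.05 to 0.15). It was 0.019 without Mock 3 and 0.064 without Mock 1. ENO2, the neuronal enolase, had -0.065, but -0.0031 without DKK1 1, -0.029 without Mock 2 and -0.11 without DKK1 2. LDHB, the lactate dehydrogenase subunit that favours the oxidation of lactate, had 13.11, 13.07 and 13.00 in DLD-1/DKK1, against 12.99, 12.88 and 13.00 in DLD-1/Mock. Its log2 fold change was 0.10 (SE 0.05; limma adjusted p = 0.582), 0.067 without Mock 2 and 0.13 without DKK1 3. LDHA, the subunit that favours lactate formation and a standard HIF target, had -0.0004 on the same scale, and its 95% interval ran from -0.09 to 0.09.

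For the rest of the enzymes the interval of the fold change covered 0 in each case. The hexokinases HK1 and HK2, which trap glucose as its phosphate, had log2 fold changes of -0.0079 and 0.086. HK2 was highest in DKK1 2 (10.04, against 9.89 in each of the other DLD-1/DKK1 arrays). Its fold change was 0.035 without that array and 0.11 without DKK1 3. GPI, the isomerase that follows, had 0.058, but 0.020 without Mock 3 and 0.094 without Mock 2. TPI1, which interconverts the triose phosphates, had 0.013. A further TPI1 probe set had -0.046. PGK1, which makes the first ATP of the pathway, had 0.030 with an interval of -0.07 to 0.13, and PKM, which makes pyruvate, had -0.0088 with an interval of -0.11 to 0.09.

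**Figure D3:**
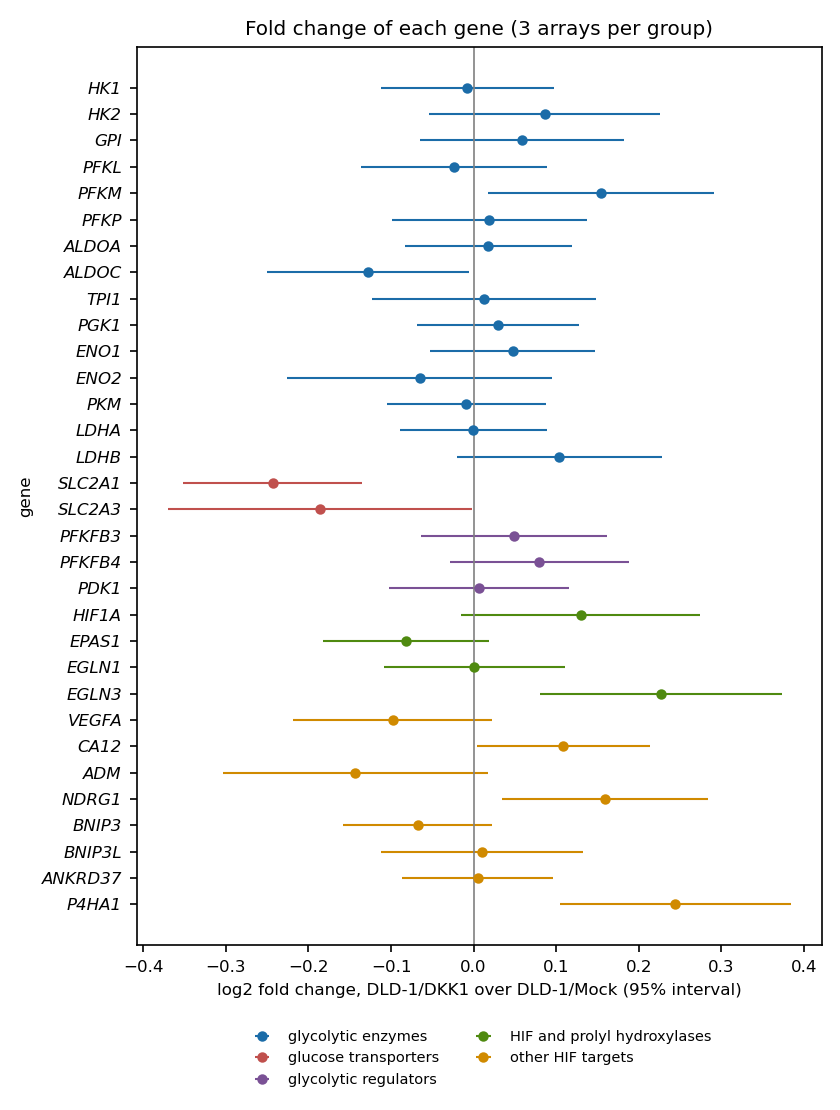
Change of each of the 32 genes in DLD-1/DKK1 relative to DLD-1/Mock (horizontal axis, log2 fold change), coloured by role. The point is the limma estimate from 3 arrays of each group and the whiskers span the 95% interval. SLC2A1 lies lowest at -0.24 and P4HA1 highest at 0.24, and LDHA, PGK1 and PKM lie next to 0.

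None of the 3 regulators of the pathway reached an unadjusted p under 0.05. PFKFB3 and PFKFB4, which set the level of the sugar bisphosphate that activates phosphofructokinase, had log2 fold changes of 0.049 and 0.080. PFKFB3 had 0.024 without Mock 3, 0.027 without DKK1 2 and 0.077 without Mock 1. PFKFB4 had 0.12 with quantile normalisation or cyclic loess, 0.13 after median centring and 0.10 with array weights, each at an unadjusted p under 0.05 and none with a limma adjusted p below 0.417. PDK1, the kinase that holds pyruvate dehydrogenase inactive, had values of 9.74, 9.79 and 9.79 in DLD-1/DKK1, against 9.73, 9.73 and 9.83 in DLD-1/Mock, and the groups overlapped. The log2 fold change of PDK1 was 0.0064, with an interval of -0.10 to 0.12.

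Among the oxygen-sensing genes, HIF1A, the alpha subunit present in most cells, had values of 12.19, 12.22 and 12.16 in DLD-1/DKK1, against 12.13, 11.94 and 12.11 in DLD-1/Mock. The groups did not overlap, and Mock 2 was again the low array. The log2 fold change of HIF1A was 0.13 (SE 0.06; limma adjusted p = 0.568), 0.069 without Mock 2 and 0.16 without Mock 1. EPAS1, the alternative alpha subunit, had 9.54, 9.61 and 9.61 in DLD-1/DKK1, against 9.65, 9.66 and 9.70 in DLD-1/Mock. All DLD-1/DKK1 arrays of EPAS1 lay below those of DLD-1/Mock, and the log2 difference was -0.08 (SE 0.04; limma adjusted p = 0.588). EGLN1 (PHD2), the main prolyl hydroxylase acting on HIF in normal oxygen, had a log2 fold change of 0.0010 with an interval of -0.11 to 0.11, beside the 0.23 of EGLN3.

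The other HIF targets did not share a direction. NDRG1, a stress-responsive gene, had values of 9.22, 9.16 and 9.17 in DLD-1/DKK1, against 9.02, 9.10 and 8.95 in DLD-1/Mock. The log2 fold change of NDRG1 was 0.16 (SE 0.05; limma adjusted p = 0.487) and the groups were apart. It was 0.20 without Mock 2 and 0.12 without Mock 3. CA12, a membrane carbonic anhydrase that takes part in acid export, had 7.60, 7.52 and 7.58 in DLD-1/DKK1, against 7.42, 7.50 and 7.47 in DLD-1/Mock, a difference of 0.11 in log2 (SE 0.04; limma adjusted p = 0.533). The opposite sign was found for VEGFA, the angiogenic growth factor, and for ADM, the vasodilator peptide adrenomedullin. VEGFA had 9.91, 9.95 and 9.91 in DLD-1/DKK1, against 9.95, 10.10 and 10.02 in DLD-1/Mock, and the groups overlapped. Its log2 fold change was -0.10 (SE 0.05; limma adjusted p = 0.590), -0.060 without Mock 2 and -0.14 without Mock 1. ADM had 7.58, 7.54 and 7.72 in DLD-1/DKK1, against 7.69, 7.85 and 7.74 in DLD-1/Mock. The difference was -0.14 in log2 (SE 0.07; limma adjusted p = 0.568), but -0.099 without Mock 2 and -0.20 without DKK1 3.

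Neither of the mitophagy receptors reached an unadjusted limma p under 0.05. BNIP3L, the target with the highest array value, had 11.67, 11.68 and 11.65 in DLD-1/DKK1, against 11.61, 11.61 and 11.75 in DLD-1/Mock, with a log2 fold change of 0.0098. BNIP3 had -0.068 with groups that did not overlap, but was dim (percentile 24.2) and not shown to be above background. ANKRD37, a small ankyrin repeat protein, had a log2 fold change of 0.0049 and an interval of -0.09 to 0.10.

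Set side by side, the glycolytic enzymes and the other hypoxia genes had medians of 0.018 and 0.0064, a difference of 0.011. With means in place of medians the difference was 0.008. The gap of the class means had an SD of 0.018 between dishes, which is the spread of single arrays and not the error of either difference. The mean log2 value of the 15 enzymes was 10.89, 10.92 and 10.90 in DLD-1/DKK1, against 10.89, 10.90 and 10.86 in DLD-1/Mock. That of the 17 other hypoxia genes was 8.89 in each DLD-1/DKK1 array, against 8.87, 8.88 and 8.88 in DLD-1/Mock. The sign of the gap between the medians turned to negative without DKK1 1 (-0.0040), Mock 2 (-0.0047) or Mock 3 (-0.0092). It did so as well with array weights on all arrays (-0.0003). The values of the classes also differed in width. The median size of the change was 0.098 for the other hypoxia genes and 0.030 for the enzymes, and 8 of 17 (47.1%) against 3 of 15 enzymes exceeded 0.1 in size, with 24.3% over all genes. At an unadjusted p under 0.05 the counts were 6 of 17 other hypoxia genes (4 higher, 2 lower) and 2 of 15 enzymes, beside 9.23% of all probe sets (4.02% higher, 5.21% lower). These are descriptions of lists chosen with earlier results known, and the difference in width was not tested.

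**Figure D4:**
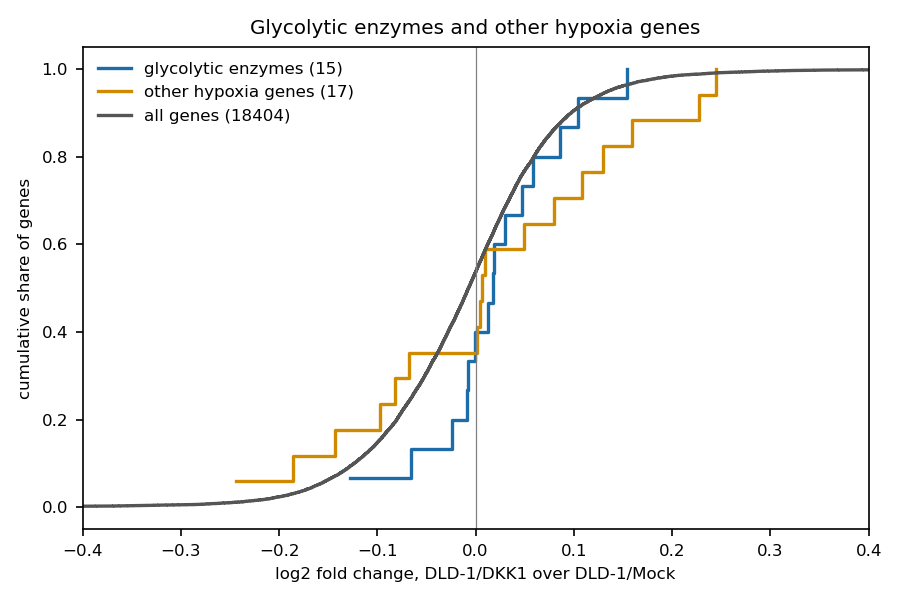
Cumulative share of genes (vertical axis) against the change in DLD-1/DKK1 relative to DLD-1/Mock (horizontal axis, log2 fold change) for 15 glycolytic enzymes, 17 other hypoxia genes and all 18404 genes, each gene being 1 step. The curves cross near 0, with medians of 0.018, 0.0064 and -0.0072, and the median size of the change, 0.098 for the other hypoxia genes, was 0.030 for the enzymes and 0.055 for all genes, some of which lie outside the axis.

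In 13 of the 32 members (8 higher, 5 lower) all arrays of one group lay on one side of all arrays of the other, against 16.5% of all probe sets (7.91% higher, 8.55% lower). Over all genes, with 1 probe set each, this held for 3587 of 18404 (1783 higher, 1804 lower). Members were measured with little spread, the median SD between dishes being 0.037 in DLD-1/DKK1 and 0.053 in DLD-1/Mock, against 0.050 and 0.066 over all genes. Mock 2 was the highest or the lowest of the 6 arrays in 21 members (65.6%, against 58.2% of all genes). Mock 3 was at an extreme in 15 members (46.9%, against 29.5%), DKK1 2 in 13 (40.6%, against 31.9%) and DKK1 1 in 10 (31.2%, against 36.3%). DKK1 3 was so in 3 members (9.4%, against 22.2%) and Mock 1 in 2 (6.2%, against 21.9%). Whatever sets Mock 2 apart was not tested.

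Further genes of the same pathways gave no adjusted call either. Of 27 measured further HIF targets, 0 had a limma adjusted p under 0.05, and at an unadjusted p under 0.05 there were 5 higher and 0 lower, beside 4.02% and 5.21% of all probe sets. In 9 of these 27 every DLD-1/DKK1 value exceeded every DLD-1/Mock value, and in 0 the reverse held. Beside these stood 7.91% and 8.55% of all probe sets, and 1783 and 1804 of all 18404 genes. The median log2 fold change of the 27 was nonetheless 0.0070, with 15 above 0 and 12 below. CEMIP, a hyaluronan-binding protein, had 0.12 (SE 0.04; limma adjusted p = 0.485) and FAM162A, a mitochondrial protein, had 0.14 (SE 0.05; limma adjusted p = 0.487). Among 28 further glycolysis genes 0 passed, and the unadjusted test put 3 lower and 0 higher at p under 0.05. SLC2A10, a facilitative transporter, had -0.27 in log2 (SE 0.07; limma adjusted p = 0.398), and ENO3, the muscle enolase, had -0.30 (SE 0.08; limma adjusted p = 0.404). GAPDH, the dehydrogenase between the aldolase and PGK1 steps, had 0.0043. Of 9 further regulators of HIF, 0 reached an unadjusted p under 0.05.

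**Figure D5:**
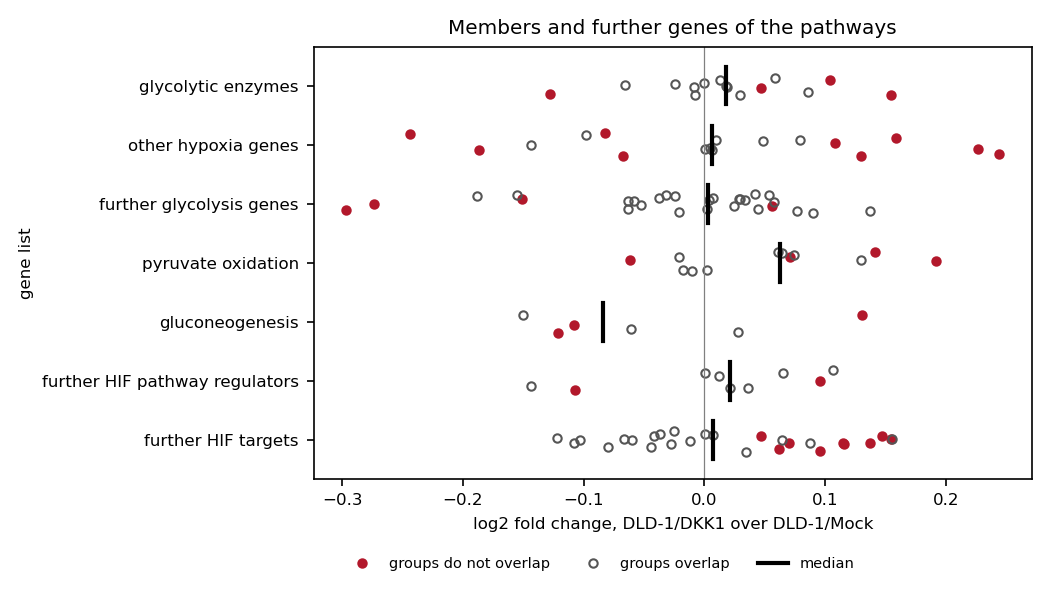
Change in DLD-1/DKK1 relative to DLD-1/Mock (horizontal axis, log2 fold change) for the 2 classes of members and for 5 further gene lists (rows), with a point for each gene, filled where the groups do not overlap, and a bar for the list median. In the further HIF targets all 9 filled points lie above 0, and the medians of both member classes lie at 0.018 and 0.0064.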

How the data were processed

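RNA of doxycycline-treated cells, 3 dishes of DLD-1/DKK1 and 3 of DLD-1/Mock, had been hybridised to Affymetrix Human Gene 1.0 ST arrays. The authors imported the scans into R with the affy package and made log2 values by the robust multichip average method, which corrects background, quantile-normalises and summarises each probe set. The deposited log2 values were used as they were. A shift common to most transcripts is removed by this method, and changes of dim probe sets are compressed. Versions of these tools and the genome build are not given in the sources used here.

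Of 32321 probe sets, 19158 had 1 platform symbol, 1388 several and 11775 none. Symbols were updated through the gene number (19128 matched). Groups came from the sample titles. limma 3.58.1 in R 4.3.3 (lmFit, eBayes) fitted DLD-1/DKK1 minus DLD-1/Mock over all probe sets, two-sided, with Benjamini-Hochberg adjustment and a threshold of 0.05. SE are moderated and intervals 95%. Gene lists were described by counts and medians, without a test. The fit was tested on simulated data.

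Members and lists were chosen with earlier results of these data known. Values were given in every array for each member with an unadjusted p under 0.05 and for the brightest of each role group, and further genes were named up to 2 per list by smallest p. Values in every array for LDHB, EPAS1, VEGFA and ADM, GAPDH and the LDHA promoter were added after their values were seen. Those of PDHB and PDK3 in every array were also given outside that rule. Alternatives were quantile normalisation, median centring, cyclic loess, a brightness filter, annotated probe sets only, another prior, array weights, no moderation, a replicate block, leaving out each array, averaging probe sets and other class summaries. For the further genes they were added after seeing the data. Same-numbered dishes did not deviate together (correlations of 0.105, 0.008 and -0.137). Precision is limited by the small number of arrays. Figures were drawn with matplotlib 3.10.9.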

Additional observations from a re-analysis of the deposited data

How the results depend on the processing

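No member passed after adjustment in any alternative run, the smallest limma adjusted p over members and alternatives being 0.0962 (SLC2A1, trended and robust prior). DKK1 lost its call without moderation (7.05, limma adjusted p = 0.0646). Instead of 28 probe sets (12 higher, 16 lower), 17 passed after median centring (10 higher, 7 lower), 66 among those brighter than the median, 98 among those with a symbol, 53 under the trended and robust prior, 59 when arrays were weighted, 1 when variances were not moderated, and 2 to 6 when an array was dropped. With the replicate number as a block 1 probe set passed, where same-numbered dishes were not each other's best match. At an unadjusted p under 0.05 the block left 4 members (12.5%), beside 7.52% of all probe sets. With 1 array left out that count of members was 3 to 6 (9.38% to 18.8%), beside 5.92% to 9.95% of all probe sets. The median of the glycolytic enzymes was 0.070 after median centring and -0.0025 with cyclic loess. That of the other hypoxia genes was -0.0009 with quantile normalisation, 0.059 after median centring, -0.011 with cyclic loess, 0.012 with array weights and -0.0016 to 0.024 with 1 array left out. The difference of the medians ran from -0.0092 to 0.036 with 1 array left out. The causes were not tested.

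In 21 of the 32 members the sign was the same in every alternative run on them, and the 11 that turned were at most 0.024 in size. After median centring HK1 turned to 0.045, PFKL to 0.028, PKM to 0.044 and LDHA to 0.052, and with array weights PKM turned to 0.0037. With cyclic loess PFKP turned to -0.0007, ALDOA to -0.0025, TPI1 to -0.0062, PDK1 to -0.011, EGLN1 to -0.018 and BNIP3L to -0.011. With quantile normalisation TPI1 turned to -0.014, PDK1 to -0.014, EGLN1 to -0.029 and BNIP3L to -0.0009, and the mean over both probe sets of TPI1 was -0.017. With 1 array left out HK1 ran from -0.037 to 0.015, PFKP from -0.011 to 0.052, ALDOA from -0.0068 to 0.044, TPI1 from -0.041 to 0.045, PKM from -0.020 to 0.011, LDHA from -0.010 to 0.010, PDK1 from -0.011 to 0.040, EGLN1 from -0.024 to 0.024, BNIP3L from -0.015 to 0.056 and ANKRD37 from -0.0099 to 0.020. Of the further genes, for which the alternatives were chosen after seeing the data, GAPDH turned to -0.0093 with quantile normalisation and -0.0085 with cyclic loess and ran from -0.013 to 0.036 with 1 array left out. Dim probe sets such as SLC2A3 and BNIP3 limit what their values can show.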

Other observations

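The fates of pyruvate outside lactate formation were followed with 2 more lists. Of 12 measured genes of pyruvate oxidation, 0 had a limma adjusted p under 0.05, and at an unadjusted p under 0.05 there were 2 higher and 0 lower (4.02% and 5.21% of all probe sets), with a median log2 fold change of 0.063 and 8 above 0. PDHB, a subunit of pyruvate dehydrogenase, had values of 10.06, 10.05 and 9.94 in DLD-1/DKK1, against 9.92, 9.67 and 9.88 in DLD-1/Mock. PDK3, a kinase that inhibits that enzyme, had 10.11, 10.15 and 10.08 in DLD-1/DKK1, against 9.94, 9.90 and 10.07 in DLD-1/Mock. The log2 fold change of PDHB was 0.19 (limma adjusted p = 0.534; 0.11 without Mock 2 and 0.24 without Mock 1). That of PDK3 was 0.14 (limma adjusted p = 0.525), so that a subunit of the complex and one of its inhibitors had the same sign.

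Of 6 gluconeogenesis genes, 0 passed and 1 in each direction had an unadjusted p under 0.05, beside 4.02% higher and 5.21% lower of all probe sets. PCK2, the mitochondrial phosphoenolpyruvate carboxykinase, had 0.13 in log2 (SE 0.05; limma adjusted p = 0.512), and FBP1, which opposes phosphofructokinase, had -0.12 (SE 0.04; limma adjusted p = 0.516; -0.069 after median centring).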
